A study of Homo sapiens with 6 samples.

Results

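The 6 RNA-seq libraries, labelled as CCRF-SB cells, were divided by their level of DDIT4, a stress-induced inhibitor of mTORC1, at 1000 CPM (a gene's counts scaled to a common library total). Of the 6 libraries, 3 lay above that level (siControl replicates 1 and 2 and siANXA1 replicate 2) and 3 below it (siControl replicate 3 and siANXA1 replicates 1 and 3). The division therefore crossed the knockdown groups. The libraries were selected on measured values, those of DDIT4, with PHGDH, ATF5, CHAC1 and INHBE as further markers seen to move with DDIT4. The values on its sides are a description, with no test between them and no mean over a side. Genes were compared between single libraries of the same group, so that the knockdown was held fixed.

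CCRF-SB is an established line labelled as lymphoblast-like, from peripheral blood, and as a B-cell acute lymphoblastic leukemia. The siControl cells (genotype label WT) were given an empty vector, and the siANXA1 cells (genotype label ANXA1 down-regulated) a lentivirus with an ANXA1-silencing RNA from Genechem, so every library comes from manipulated cells. The labels give RPMI-1640 with FBS for growth, puromycin selection of the silenced lines and day 5 for all libraries, 3 in each group. They do not say whether replicates were cultured apart, and a p-value here covers spread among libraries that may be technical.

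When amino acids run short or the endoplasmic reticulum is stressed, kinases phosphorylate the initiation factor eIF2 alpha. Translation then slows in general while that of the transcription factor ATF4 rises. With partners of the C/EBP family, ATF4 switches on enzymes that make serine, asparagine and proline, amino acid transporters, aminoacyl-tRNA synthetases, inhibitors of mTORC1 and secreted stress factors. Leukemic lymphoblasts are known for weak asparagine synthesis, the basis of asparaginase treatment.

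The shallowest library, siANXA1 replicate 2, held 21333951 counts assigned to genes and the deepest, siANXA1 replicate 1, held 44148505. In siControl, mitochondrial rRNA took 2.10%, 2.15% and 1.15% of the counts by replicate number, and in siANXA1 0.808%, 1.09% and 0.787%. Within each group the libraries above 1000 CPM of DDIT4 thus had the larger mitochondrial rRNA share. MT-ND4, a mitochondrial complex I subunit, read 43.7 CPM in siANXA1 replicate 2 and at least 11194 CPM in each other library. The part of RNA composition in the values below was not tested; counts with all libraries thinned to the depth of the smallest, and without siANXA1 replicate 2, stand beside the member count. Defining markers of the labelled cell type were nearly absent, which puts the identity of the line in question: MS4A1, VPREB1, IGLL1, DNTT and IGHM, which define B cells or their precursors, were at or under 0.05 CPM in every library. Of the 15 B cell genes listed, 4 were at 0 in all libraries and 5 could be tested, of which 3, CD79B and CD24 among them, were higher in all libraries above 1000 CPM of DDIT4 and 0 lower, where 19.7% of all 17947 genes tested were higher and 20.1% lower. The list's summed level was 70.1, 90.4 and 51.6 CPM in siControl and 43.6, 107 and 41.5 CPM in siANXA1, mostly from CD24. Summed T and NK cell genes lay between 12.1 and 39.8 CPM, myeloid genes between 79.8 and 122 CPM and fibroblast and endothelial genes between 6.55 and 28.8 CPM. The fetal globin gene HBG2 lay between 272 and 879 CPM, and the embryonic globin gene HBE1 read 4.73, 636 and 9.81 CPM in siControl and 3282, 2137 and 2969 CPM in siANXA1. Of 19 erythroid genes tested, 8 were lower in all 3 libraries above 1000 CPM of DDIT4 than in all 3 below and 0 were higher, beside the same shares of all genes. The summed level of the erythroid list followed the knockdown groups, at 2294, 3775 and 3516 CPM in siControl and 7482, 6093 and 6566 CPM in siANXA1. The part of these lineage genes in the results was not tested. In bulk RNA, fewer cells of a kind and less RNA per cell cannot be told apart.

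Before scaling, DDIT4 itself stood at 2324, 2205 and 182 CPM in siControl, in the order of the replicate numbers, and at 108, 1473 and 107 CPM in siANXA1. The libraries nearest the dividing level were siANXA1 replicate 2, at 1473 CPM, and siControl replicate 3, at 182 CPM, so no library lay close to 1000 CPM. All values from here on are CPM scaled by TMM, in the same order of libraries. Differences are in log2 CPM between libraries of 1 group: siControl replicates 1 and 2 each minus replicate 3, and siANXA1 replicate 2 minus replicates 1 and 3.

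DDIT4 (chr10:72273920-72276036, plus strand) and PHGDH (chr1:119648411-119744226, plus strand), like ATF5, CHAC1 and INHBE, are protein coding genes, placed here on GRCh38. Scaled, DDIT4 read 2279, 2169 and 189 CPM in siControl and 110, 1434 and 108 CPM in siANXA1, with within-group differences of 3.52 to 3.72. PHGDH, which commits a glycolytic intermediate to serine, read 107, 98.1 and 8.85 CPM in siControl and 4.30, 32.9 and 4.20 CPM in siANXA1. ATF5, a transcription factor of the stress response, read 206, 277 and 23.8 CPM in siControl and 10.0, 29.7 and 10.9 CPM in siANXA1. In both genes the 3 libraries above 1000 CPM of DDIT4 were the 3 highest, but siANXA1 replicate 2 was well under its siControl counterparts, and its ATF5 level was close to the 23.8 CPM of siControl replicate 3. CHAC1, which degrades glutathione, read 24.9, 35.1 and 3.83 CPM in siControl and 2.0, 45.6 and 1.58 CPM in siANXA1. Here siANXA1 replicate 2 was the highest of all 6 libraries. INHBE, a secreted protein of the TGF-beta family, read 47.1, 49.4 and 2.06 CPM in siControl and 1.22, 18.2 and 1.39 CPM in siANXA1. Its 4 within-group differences, from 3.66 to 4.54, included the largest smallest value among protein coding genes with a mean of 5 CPM or more.

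**Figure D1:**
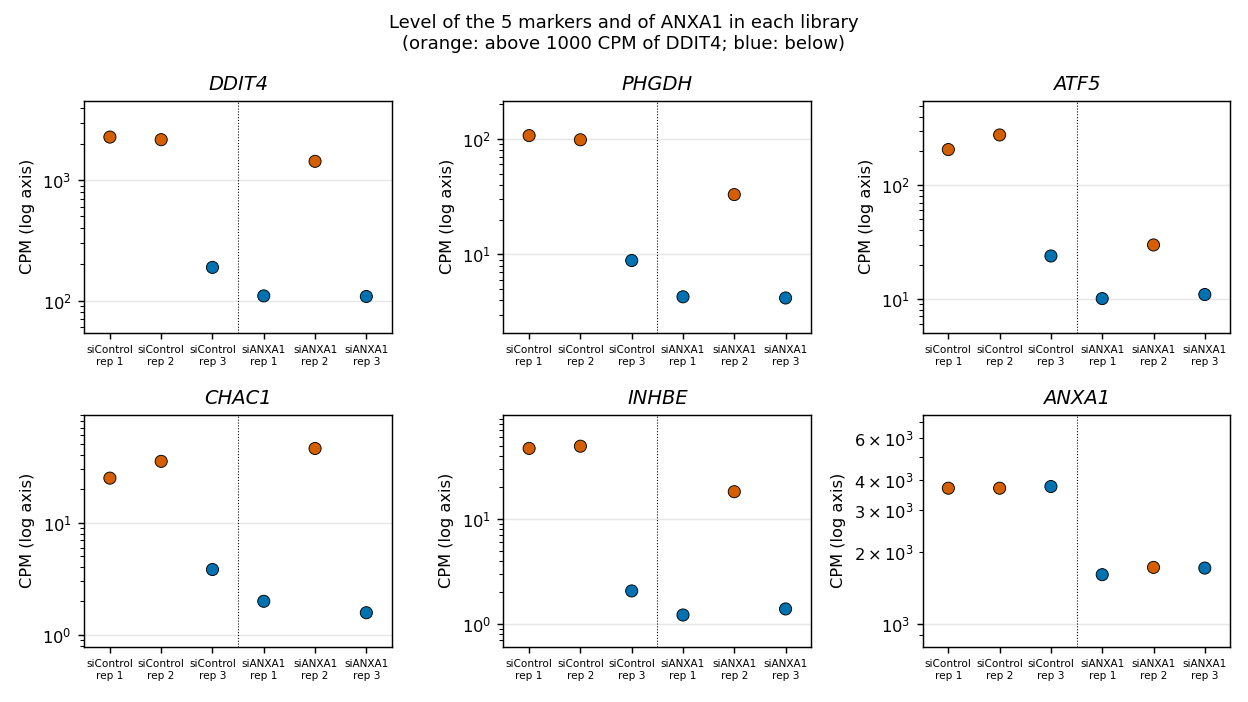
Level of the 5 markers and of ANXA1 (y axis, TMM-scaled CPM, log axis) in each library (x axis); each point is 1 library, orange above and blue below 1000 CPM of DDIT4, and a dotted line divides the groups. The orange points are the 3 highest for each marker, whereas ANXA1 follows the groups, at 3691 to 3751 CPM in siControl and 1604 to 1721 CPM in siANXA1.

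The estimates per transcript divided these markers into simple and uncertain cases. For DDIT4, 99.4% of the counts lay on 1 coding transcript, ENST00000307365, and for INHBE 98.8% on ENST00000266646. PHGDH was different: transcripts annotated as retaining an intron held 67.3% of its counts and coding transcripts 27.2%. Before scaling, the coding transcripts of PHGDH summed to 29.9, 25.3 and 3.51 CPM in siControl and to 2.88, 4.08 and 2.54 CPM in siANXA1. Those with a retained intron summed to 73.9, 67.4 and 4.69 CPM and to 1.22, 28.1 and 1.59 CPM. The higher PHGDH level of siANXA1 replicate 2 was therefore almost wholly assigned to transcripts with a retained intron, while in siControl replicates 1 and 2 both kinds were higher. The 3 coding transcripts of ATF4 shared its counts very unevenly between libraries (9.26% to 90.9% on ENST00000396680), so only the gene's sum was used. Those of CHAC1, all coding, were uneven too. ENST00000617768 held 26.3% and 23.9% of its counts in siControl replicates 1 and 2 and 98.6% in siANXA1 replicate 2.

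Among the regulators, ATF4 mRNA read 682, 604 and 370 CPM in siControl and 344, 525 and 327 CPM in siANXA1. The 2 sides did not overlap, with differences of 0.61 to 0.88. ATF3, an induced repressor of the same family, read 51.6, 39.6 and 7.6 CPM and 7.95, 79.9 and 14.7 CPM, with siANXA1 replicate 2 highest. DDIT3, the pro-apoptotic factor CHOP, read 101, 95.3 and 19.9 CPM and 23.2, 77.4 and 26.3 CPM. TRIB3, an inhibitor of ATF4, read 373, 353 and 90.1 CPM and 72.2, 120 and 72.9 CPM, so the step was smaller in siANXA1 (0.72 and 0.73) than in siControl (1.97 and 2.05). Over all 17947 genes tested, 39.8% had sides that did not overlap, 19.7% higher and 20.1% lower in the libraries above 1000 CPM of DDIT4. Of the 21 stress kinases and transcription factors, 11 were higher, 3 lower and 7 overlapped. The 3 lower members were EIF2AK2 and GCN1, a kinase of eIF2 alpha and an activator of another, and EIF2S1, which encodes eIF2 alpha itself, at 133, 139 and 234 CPM and 283, 192 and 266 CPM. ATF6, the sensor of another branch of the endoplasmic reticulum response, read 13.2 and 6.74 CPM in siControl replicates 1 and 2 and 119 to 134 CPM in the other 4 libraries. It thus did not follow the sides. Since DDIT4 and the markers chose the sides, nothing is read from these shares beyond their size.

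Over the 7 amino acid response lists together, 129 of 143 genes were tested. Of these, 57 were higher on the side above, 19 lower and 53 overlapped, and 27 were at least 2-fold higher in all 4 within-group differences and 1 at least 2-fold lower. Over all genes the shares at least 2-fold apart in all 4 were 3.68% higher and 1.82% lower. DDIT4, PHGDH, ATF5, CHAC1 and INHBE, on which the libraries were selected, are counted among the 57 and among the 27. Each is also counted as higher in its own list. With all libraries thinned to the smallest, 52 of 126 members were higher and 20 lower, where 40.5% of all 16157 genes had sides that did not overlap. Without siANXA1 replicate 2, 72 of the 129 were higher and 28 lower, with 28.7% and 27.1% of all genes. The members' median difference was 0.30 and 0.30 in siControl and 0.30 and 0.17 in siANXA1, where the medians over all genes lay between -0.01 and 0.03. The lists also hold genes that were chosen as known ATF4 targets with earlier results of these data in view.

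**Figure D2:**
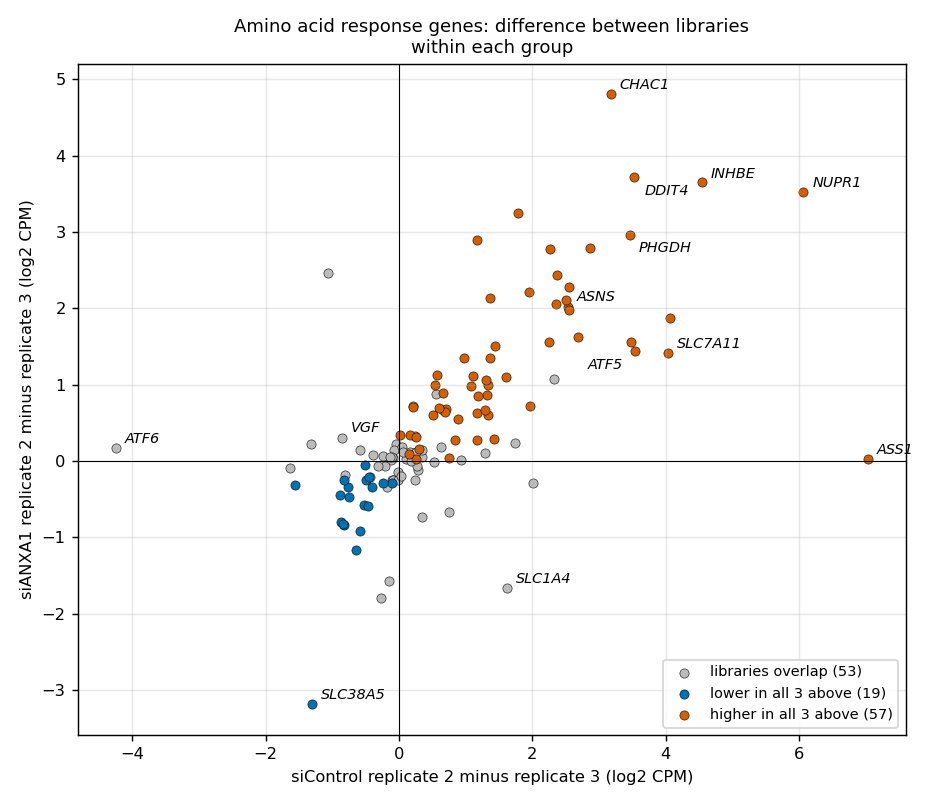
Each point is 1 of the 129 tested amino acid response genes, placed by its difference between siControl replicates 2 and 3 (x axis) and between siANXA1 replicates 2 and 3 (y axis), both in log2 CPM; colour gives the side. All orange points lie up and to the right by the rule that colours them. SLC1A4 and ATF6 lie in quadrants where the 2 groups go opposite ways, and ASS1 is far to the right with almost no difference in siANXA1.

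Some members carry a short sequence in their promoters that binds ATF4 with a C/EBP partner, the C/EBP-ATF response element. The RefSeq promoter table (GRCh38.p14), from 250 bases before to 50 after each start, was searched on both strands for TGATGNAA at any listed start of a gene. The motif was in 4.46% of 27305 genes and in 2.66% of the 10206 tested coding genes found in the table, and in 21.8% (24 of 110) of the amino acid response genes found there. Listed genes were also matched by newer symbols, the 10206 only by the symbol in the count data. Among cytosolic aminoacyl-tRNA synthetases the motif was in 7 of 16. Those 7 were matched by newer symbols and are not among the 10206. Several of these genes are textbook carriers of the element, so the share describes how the lists were made. The windows below show the motif in 7 amino acid response genes on the high side and in HERPUD1, a gene of the endoplasmic reticulum list that was also higher, with the match in capitals, read in the gene's direction. The windows of 30 bases (ASNS, CHAC1, BCAT1, GOT1 and AARS) overlap an exon annotated in GENCODE, and those of 60 bases do not.

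ASNS, chr7:97872458-97872487, minus strand: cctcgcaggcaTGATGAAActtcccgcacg
CHAC1, chr15:40953251-40953280, plus strand: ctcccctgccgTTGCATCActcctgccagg
CEBPG, chr19:33374045-33374104, plus strand: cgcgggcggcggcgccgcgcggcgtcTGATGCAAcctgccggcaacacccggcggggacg
ATF3, chr1:212565190-212565249, plus strand: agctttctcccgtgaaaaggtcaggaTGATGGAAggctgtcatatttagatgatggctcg
BCAT1, chr12:24949131-24949160, minus strand: tgtcttcctgcTGATGCAAtccgctaggtc
GOT1, chr10:99430804-99430833, minus strand: aattgcattggTTGCATCAttctcggcagc
AARS, chr16:70289675-70289704, minus strand: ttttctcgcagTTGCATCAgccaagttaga
HERPUD1, chr16:56931940-56931999, plus strand: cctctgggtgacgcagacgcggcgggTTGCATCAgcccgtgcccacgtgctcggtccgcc

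The letters run as TGATGNAA in ASNS, CEBPG, ATF3 and BCAT1 and as its reverse complement in CHAC1, GOT1, AARS and HERPUD1, an endoplasmic reticulum protein of the degradation machinery. Of the 22 tested amino acid response genes with the motif, 12 were higher, 0 lower and 10 overlapped. Of the 79 in the table without it, 30 were higher and 18 lower. Over all 271 tested coding genes with the motif, 24.4% were higher and 11.4% lower, against 19.9% and 23.2% of the 10206. The 271 include amino acid response genes already counted, such as ASNS and CHAC1, so these shares are not a separate observation. A match of letters is not a bound site. In the windows of DDIT4, PHGDH, ATF5 and INHBE these letters were not found.

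In mTORC1 control, SESN2, a leucine sensor that restrains mTORC1, read 360, 325 and 84.5 CPM in siControl and 56.8, 277 and 59.7 CPM in siANXA1. The sides were apart by 1.94 to 2.29 in all 4 differences, nearly the same size in both groups. SESN3, a related inhibitor, read 43.0, 48.0 and 19.3 CPM and 33.1, 74.0 and 35.5 CPM. EIF4EBP1, the repressor of cap-dependent translation, read 189, 158 and 97.6 CPM and 94.2, 150 and 96.7 CPM. Over all genes tested 19.7% were higher and 20.1% lower. Of 13 tested members of the list 5 were higher, DDIT4 among them, 1 lower and 7 overlapped. Among those that overlapped, DEPDC5, a subunit of the GATOR1 complex, stayed between 16.1 and 18.3 CPM in all 6 libraries.

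Serine synthesis and the mitochondrial folate cycle followed PHGDH in part. PSAT1, the second enzyme, read 532, 548 and 107 CPM in siControl and 71.1, 272 and 65.3 CPM in siANXA1. ALDH1L2, a mitochondrial folate dehydrogenase, read 130, 125 and 11.1 CPM and 1.79, 38.0 and 12.9 CPM. MTHFD2, another mitochondrial folate enzyme, read 612, 654 and 261 CPM and 104, 511 and 282 CPM, so siANXA1 replicates 1 and 3 differed from each other by more than the sides did in some pairs. PSPH, the last enzyme of serine synthesis, was highest in siANXA1 replicate 2, at 25.0 CPM, and read 11.6 and 10.9 CPM in siControl replicates 1 and 2. Beside 19.7% higher and 20.1% lower over all genes tested, 6 of the 18 tested members were higher, 3 lower and 9 overlapped. The lower members were MTHFD1, GCSH and FPGS, and SHMT1 and TYMS, which serve thymidylate synthesis, overlapped. SHMT2, the mitochondrial serine hydroxymethyltransferase, read 398, 354 and 186 CPM and 176, 179 and 177 CPM, high in siControl replicates 1 and 2 and nearly level in siANXA1. SLC25A32, the mitochondrial folate carrier, read 23.0 and 23.1 CPM in siControl replicates 1 and 2 and 60.5 to 71.5 CPM in the other 4 libraries, again apart from the sides.

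Among other amino acid enzymes, ASNS, asparagine synthetase, read 838, 760 and 132 CPM in siControl and 135, 527 and 130 CPM in siANXA1. CTH, which makes cysteine, read 174, 145 and 24.7 CPM and 22.8, 83.5 and 21.2 CPM. GPT2, the mitochondrial alanine aminotransferase, read 57.7, 55.4 and 9.69 CPM and 7.10, 29.7 and 6.87 CPM. In these 3 genes siANXA1 replicate 2 lay between the siControl libraries above and all libraries below. GLUL, glutamine synthetase, read 1610, 1673 and 848 CPM and 632, 1469 and 576 CPM, and BCAT1, a branched-chain aminotransferase, 783, 626 and 398 CPM and 388, 718 and 388 CPM. Beside 19.7% higher and 20.1% lower over all genes tested, 13 of 24 tested members were higher, 5 lower and 6 overlapped. The lower ones included 2 enzymes of proline synthesis, ALDH18A1 and PYCR3, the latter at 11.1, 11.5 and 34.1 CPM and 34.0, 25.0 and 30.9 CPM, while PYCR1 overlapped. ASS1, argininosuccinate synthase, read 7.29, 7.16 and 0 CPM in siControl and 0, 0.639 and 0.627 CPM in siANXA1. It counted as higher with a smallest difference of only 0.02.

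Transporters were mixed. SLC7A11, the cystine importer, read 345, 404 and 24.7 CPM in siControl and 86.9, 217 and 81.6 CPM in siANXA1, with differences of 3.80 and 4.03 in siControl and 1.32 and 1.41 in siANXA1. SLC7A5, the leucine carrier, read 633, 596 and 393 CPM and 373, 599 and 371 CPM, and its partner SLC3A2 339, 366 and 198 CPM and 175, 259 and 176 CPM. These steps were smaller than 2-fold. SLC1A4, a carrier of alanine, serine and cysteine, read 109, 106 and 34.6 CPM in siControl and 33.4, 11.5 and 36.5 CPM in siANXA1. It was high in the siControl libraries above 1000 CPM of DDIT4 and lowest in siANXA1 replicate 2. SLC38A5, a glutamine and serine carrier, read 42.7, 43.7 and 108 CPM and 96.5, 11.0 and 101 CPM and was the member at least 2-fold lower in all 4 differences. SLC6A6, a taurine carrier, read 337 CPM in siANXA1 replicate 3 and 72.1 CPM in replicate 1, so the libraries below did not group together for it. Of 23 tested transporters 7 were higher, 3 lower and 13 overlapped, where 19.7% of all genes tested were higher and 20.1% lower.

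Cytosolic aminoacyl-tRNA synthetases showed no common direction, with medians of -0.04 and 0.05 in siControl and 0.16 and 0.11 in siANXA1. AARS, for alanine, read 1151, 1131 and 497 CPM in siControl and 462, 795 and 441 CPM in siANXA1, and CARS, for cysteine, 179, 175 and 81.1 CPM and 72.5, 151 and 69.8 CPM. WARS, for tryptophan, read 342, 271 and 101 CPM and 104, 128 and 105 CPM, so siANXA1 replicate 2 was barely above the libraries below. HARS, for histidine, was lower, at 71.8, 80.1 and 125 CPM and 154, 67.9 and 152 CPM. Of the 20 cytosolic genes 7 were higher, 4 lower and 9 overlapped; the higher members EPRS, QARS and TARS had smallest differences of 0.03, 0.02 and 0.09. Of the 17 mitochondrial genes 0 were higher, 9 lower and 8 overlapped. For both kinds, the shares over all genes tested are 19.7% higher and 20.1% lower. MARS2, the mitochondrial enzyme for methionine, read 19.4, 20.8 and 62.8 CPM in siControl and 58.0, 25.5 and 62.7 CPM in siANXA1. The difference between the 2 kinds of synthetase was not tested.

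Secreted stress factors had the highest medians of any list, 1.95 and 1.94 in siControl and 1.80 and 1.48 in siANXA1. GDF15, a hormone of the TGF-beta family that curbs appetite, read 271, 257 and 43.8 CPM in siControl and 21, 112 and 23.1 CPM in siANXA1. STC2, a glycoprotein induced by stress, read 26.3, 23.3 and 3.56 CPM and 3.19, 10.3 and 3.30 CPM. CXCL8, a neutrophil chemokine, read 49.5, 52.1 and 10.7 CPM and 16.2, 96.2 and 14 CPM, with siANXA1 replicate 2 highest. ADM2, a peptide of the calcitonin family, read 29.3, 27.3 and 3.71 CPM and 1.77, 12.4 and 1.75 CPM. Over all genes tested 19.7% were higher and 20.1% lower. Only 10 of the 15 genes listed could be tested, of which 8 were higher, the marker INHBE among them, and 2 overlapped. FGF21, INHBA, INHBB, STC1 and IL11 were too low, so this count covers the genes that passed a filter on low values. VGF, one of the 2 that overlapped, followed the groups, at 1.61 to 2.96 CPM in siControl and 12.3 to 15.2 CPM in siANXA1.

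**Figure D3:**
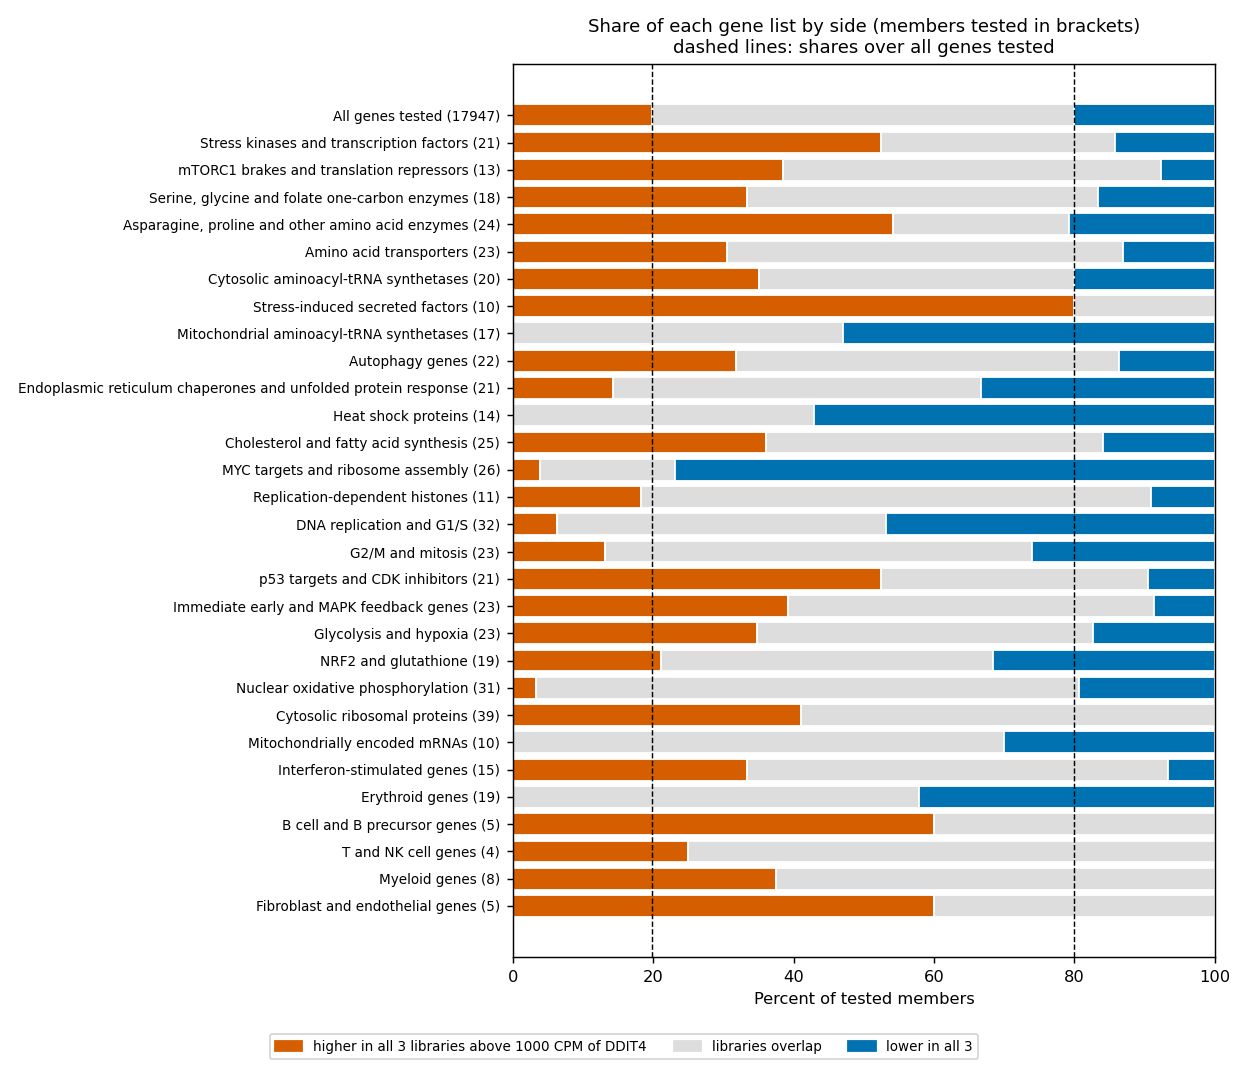
Share of each list's tested members (x axis, percent) that were higher in all 3 libraries above 1000 CPM of DDIT4 (orange), overlapped (grey) or were lower in all 3 (blue), with the members tested in brackets and dashed lines at the shares over all 17947 genes. Secreted factors have the largest orange share, 8 of 10, and MYC targets and ribosome assembly the largest blue one, 20 of 26.

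Other lists give the surroundings of the amino acid genes, beside 19.7% of all genes tested higher and 20.1% lower. Of 25 cholesterol and fatty acid synthesis genes 9 were higher (36%) and 4 lower. Autophagy genes were higher in 7 of 22 (31.8%) and lower in 3, and interferon-stimulated genes in 5 of 15 (33.3%) and in 1. These shares higher were like those of transporters (30.4%), serine and folate enzymes (33.3%) and cytosolic synthetases (35%). Of 26 genes for ribosome assembly and MYC targets, 20 were lower, 1 higher and 5 overlapped. NCL, nucleolin, read 329, 403 and 909 CPM in siControl and 1178, 366 and 589 CPM in siANXA1. NOP56, a box C/D snoRNP protein, read 89.8, 94.0 and 214 CPM and 223, 134 and 227 CPM. NPM1 and PA2G4, the most abundant of the list, had differences of -0.62 to 1.15 and of -0.95 to -0.42, and NPM1 overlapped. The higher member was MYC itself, at 90.3, 96.3 and 11.1 CPM and 9.77, 13.0 and 10.6 CPM, with differences of 3.02 and 3.11 in siControl and of 0.41 and 0.29 in siANXA1. The E-box CACGTG, the motif of MYC and its relatives, lay in the promoter window of 9 of 20 of these genes and of 12.7% of tested coding genes. The list was chosen in part as MYC targets, so its share partly describes how the list was made. Of the 201 coding genes at least 2-fold lower in all 4 differences, the promoter table held 151, and 25.2% of these had the E-box. Of the 440 at least 2-fold higher it held 314, and 9.87% of these had the E-box. Cytosolic ribosomal protein genes went the other way from assembly factors: 16 of 39 were higher and 0 lower, with RPL3 at 2796, 2644 and 1625 CPM and 1747, 2011 and 1559 CPM.

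Of 21 endoplasmic reticulum chaperones and unfolded protein response genes 3 were higher (14.3%), 7 lower (33.3%) and 11 overlapped. All genes tested had shares of 19.7% higher and 20.1% lower. Genes with a mean of 5 CPM or more had 18.6% and 26.4%, so this list was not far from them. The higher ones were HERPUD1, DNAJB9 and ERN1, the sensor kinase IRE1, at 141, 145 and 34.5 CPM in siControl and 33.0, 65.9 and 36.2 CPM in siANXA1. HSPA5, the main luminal chaperone BiP, read 1686, 1718 and 1574 CPM and 1711, 2381 and 1786 CPM, and only siANXA1 replicate 2 stood out. PDIA6, a disulfide isomerase, was lower, at 642, 661 and 902 CPM and 950, 812 and 896 CPM. HSP90B1 and CALR, the most abundant of the list, both overlapped, with differences of -0.66 to 0.18 and of -0.73 to -0.29. The endoplasmic reticulum stress element (ERSE), which binds ATF6, was searched on both strands and was in 6 of 20 of these genes and in 0.167% of tested coding genes. The windows of HSPA5 and PDIA6 are shown for contrast with those above, with the match in capitals, and neither overlaps an annotated exon.

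HSPA5, chr9:125241371-125241430, minus strand: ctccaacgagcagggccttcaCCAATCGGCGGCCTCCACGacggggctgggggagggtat
PDIA6, chr2:10812848-10812877, minus strand: cccggaCCAATGAGCCGCAGCCACGgcttg

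For the lists that follow, 19.7% of all genes tested were higher and 20.1% lower. Of 14 heat shock genes 8 were lower and 0 higher. HSPH1, a cytosolic chaperone of the HSP110 family, read 72.9, 73.9 and 320 CPM in siControl and 280, 66.8 and 297 CPM in siANXA1, with all 4 differences between -2.15 and -2.07. HSPA8, the constitutive HSC70, read 844, 869 and 2072 CPM and 2234, 1465 and 1924 CPM. HSP90AB1 and HSP90AA1, the most abundant of the list, were lower, with differences of -0.45 to -0.24 and of -1.20 to -0.17. Of 32 DNA replication and G1/S genes 15 were lower and 2 higher, with CCNE1, cyclin E1, at 27.2, 26.4 and 48.9 CPM and 46.4, 29.6 and 50.1 CPM. MCM7 and MCM4, the most abundant of the list, had differences of -0.35 to -0.14 and of -0.91 to 0.15, and MCM4 overlapped. Of 21 p53 targets and CDK inhibitors 11 were higher and 2 lower. CDKN1A, the inhibitor p21, read 77.0, 73.2 and 19.6 CPM and 21.2, 55.1 and 20.3 CPM, and TNFRSF10B, a death receptor that DDIT3 also induces, 258, 254 and 51.6 CPM and 43.4, 130 and 44.3 CPM. Of 23 immediate early genes 9 were higher and 2 lower, with EGR1 at 407, 385 and 208 CPM and 99.1, 241 and 94.7 CPM. Of 23 glycolysis and hypoxia genes 8 were higher and 4 lower, and GAPDH, a glycolytic enzyme, lay between 4118 and 4361 CPM in all 6 libraries.

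**Figure D4:**
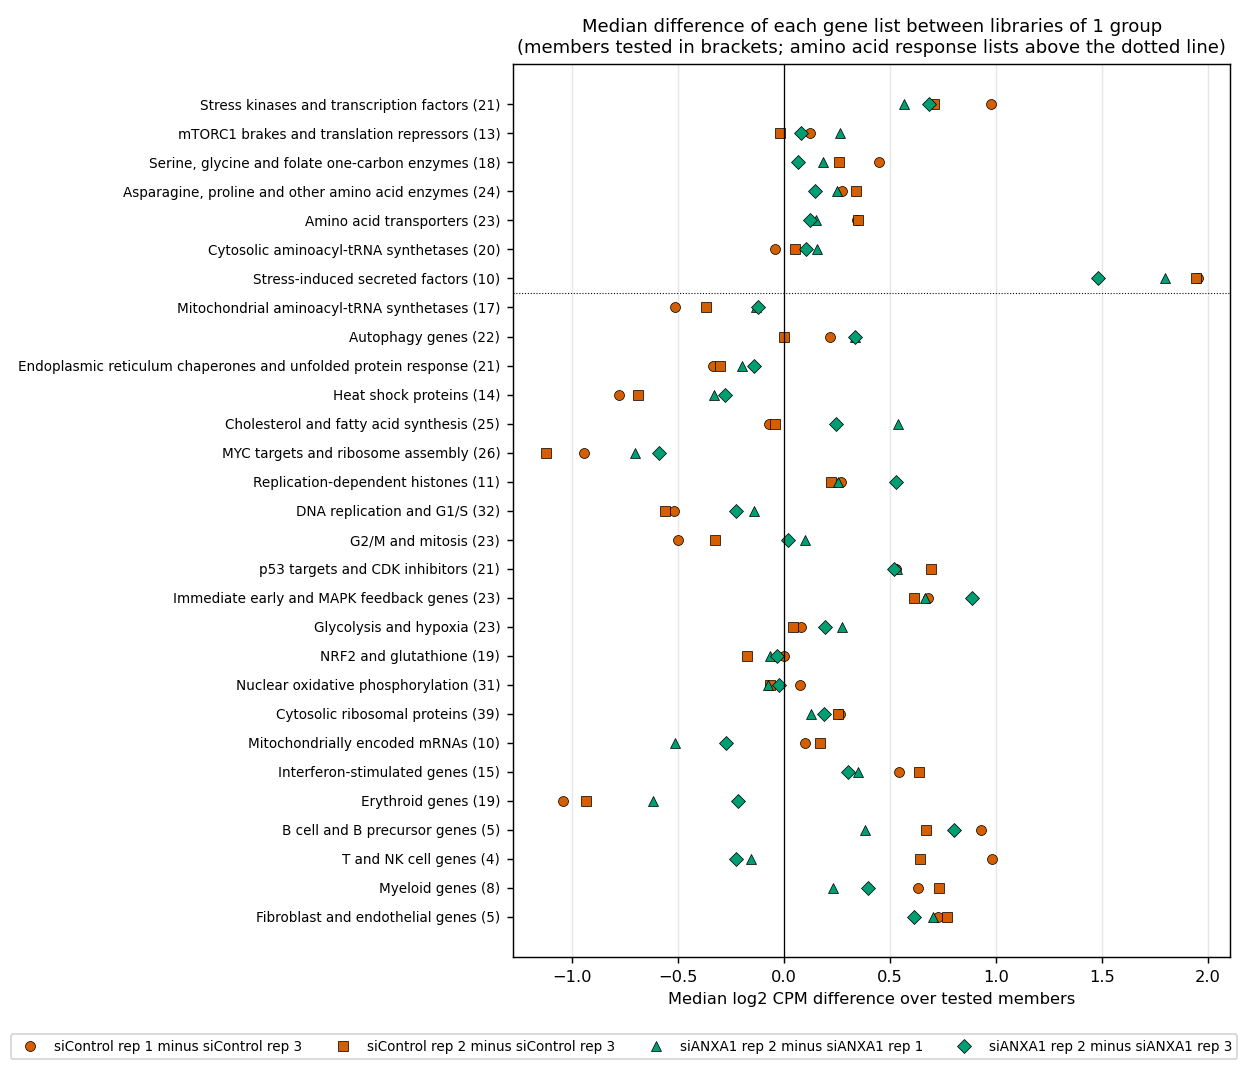
Median log2 CPM difference of each gene list (x axis) in the 4 within-group comparisons of libraries; orange symbols are siControl pairs, green symbols siANXA1 pairs. Secreted factors lie farthest right, with medians of 1.48 to 1.95, and MYC targets and ribosome assembly reach -1.12 on the left, while mTORC1 brakes and cytosolic synthetases lie between -0.04 and 0.26.

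The protein coding genes with the largest differences, at a mean of 5 CPM or more, were chosen for their values. INHBE, DDIT4, PHGDH, ADM2, CHAC1 and ATF3 were among the 12 highest, beside FAM229A, IL20RB, CAPN5, EIF2S3B, AREG and NRSN2. IL20RB, a cytokine receptor chain, read 61.5, 34.2 and 3.26 CPM in siControl and 1.68, 11.6 and 0.600 CPM in siANXA1. AREG, an EGF receptor ligand, read 15.8, 16.3 and 2.96 CPM and 2.64, 22.4 and 2.89 CPM. EIF2S3B is a near-copy of the gene for eIF2 gamma, so its reads may be divided between the 2. The 12 lowest were CIP2A, CLUH, NEFH, PITPNA, HSPH1, CDC27, MIS12, DDIAS, RBM25, MAGEA12, BEND3 and AC118553.2. CIP2A, an inhibitor of the phosphatase PP2A, read 3.30, 1.04 and 41.2 CPM and 26.6, 0.411 and 47.9 CPM. CLUH, which binds mRNAs of mitochondrial proteins, read 12, 9.93 and 186 CPM and 141, 20.2 and 118 CPM. CDC27, a subunit of the anaphase-promoting complex, read 35.4, 35.3 and 144 CPM and 164, 37.1 and 180 CPM, with nearly equal levels in the 3 libraries above.

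For the labelled contrast, siANXA1 against siControl, edgeR's quasi-likelihood test called 2 of 17947 genes (0.0111%), MAPK6 and MT-TA, both higher, and no amino acid response gene. MAPK6, an atypical MAP kinase, read 20.6, 21.4 and 20.3 CPM in siControl and 106, 105 and 91.0 CPM in siANXA1, on both sides alike. MT-TA, the mitochondrial alanine tRNA, read 0.287, 0.595 and 0.897 CPM and 75.5, 68.0 and 82.8 CPM. The call of MAPK6 was lost without any 1 library other than siControl replicate 3 (edgeR adjusted p of 0.0791 to 0.180), and that of MT-TA without siControl replicate 2 or any siANXA1 library (edgeR adjusted p of 0.0791 to 0.142). At an unadjusted p under 0.05 edgeR gave 1423 genes (7.93%), of which 20 were amino acid response genes, and DESeq2 called 119 genes higher (0.663%) and 139 lower (0.775%). The knockdown target ANXA1 read 3691, 3692 and 3751 CPM in siControl and 1604, 1721 and 1710 CPM in siANXA1, a log2 fold change of -1.14 ± 0.093 (SE) at an adjusted p of 0.0571 in edgeR. ANXA1 did not follow DDIT4: its differences within groups lay between -0.02 and 0.10.

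The markers had wide errors in the same contrast. The edgeR log2 fold changes were -1.49 ± 1.29 for DDIT4 (adjusted p = 0.767) and -2.37 ± 1.17 for PHGDH (adjusted p = 0.645). ATF5 stood at -3.33 ± 0.94 (edgeR adjusted p = 0.605), INHBE at -2.26 ± 1.44 (edgeR adjusted p = 0.696) and CHAC1 at -0.38 ± 1.40 (edgeR adjusted p = 0.942). Without siANXA1 replicate 2 the values were -3.82 for DDIT4, -4.06 for PHGDH, -4.65 for INHBE and -3.56 for CHAC1, and none of the 4 passed (edgeR adjusted p = 0.438 for each). CHAC1 stood at -0.88 when siControl replicate 3 was left out and turned positive when siControl replicate 2 was (0.17), as it did on omitting siANXA1 replicate 1 (0.15) and on omitting siANXA1 replicate 3 (0.16). The fold change was below 0 in 84 of the 129 amino acid response genes (median -0.27) and in 8878 of all 17947 genes (median 0.01). Group and side were not balanced, since siControl holds 2 of the 3 libraries above and siANXA1 1. In DESeq2, 2 members were called higher (VGF and SLC7A8) and 3 lower (ATF5, SLC6A9 and GARS), named after their values were seen.

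With the DDIT4 side as a covariate, edgeR called 5 genes (0.0279%), among them ANXA1 at -1.14 ± 0.055 (SE; adjusted p = 0.0201) and MAPK6, and again no amino acid response gene. The covariate was drawn from DDIT4, so the small errors it leaves for the markers were partly built in. Its edgeR log2 fold changes were -0.71 ± 0.064 for DDIT4 (adjusted p = 0.127), -1.35 ± 0.17 for PHGDH (adjusted p = 0.175), -2.11 ± 0.49 for ATF5 (adjusted p = 0.264), -1.05 ± 0.22 for INHBE (adjusted p = 0.243) and -0.21 ± 0.42 for CHAC1 (adjusted p = 0.851). Read side by side, DDIT4, PHGDH, ATF5 and INHBE were lower in the siANXA1 than in the siControl libraries both above and below 1000 CPM of DDIT4. CHAC1 was lower in siANXA1 only below, since siANXA1 replicate 2 was highest. The median over the 129 members was -0.11 with the covariate, with 86 below 0, beside 8973 of all 17947 genes. Whether the size of the DDIT4-side difference itself differs between the groups was not tested, since it would rest on 1 library of siANXA1 above and 1 of siControl below.

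**Figure D5:**
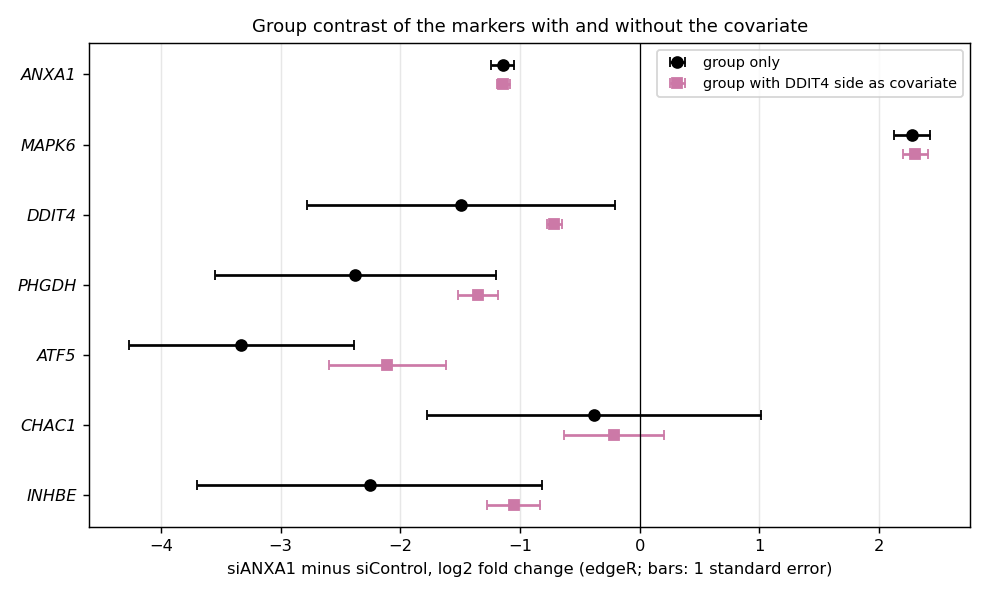
Log2 fold change of siANXA1 against siControl (x axis) for ANXA1, MAPK6 and the 5 markers, fitted with group only (black circles) and with the DDIT4 side as covariate (pink squares); bars are 1 standard error. The bars of the markers shrink with the covariate, partly by construction, while the value of ANXA1 is -1.14 in both.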

How the data were processed

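The data are transcript counts of 6 RNA-seq libraries, 3 siControl and 3 siANXA1, made from Trizol-extracted total RNA with a TruSeq kit per the labels' protocols. Per the file headers, the deposited tables hold a count for each transcript; from the values, what the authors deposited was read as estimated counts, made whole by rounding and not normalized. A transcript length is also deposited and was not used. All 1335690 values were equal in the annotated and the plain table. For aligner, counter and use of strand the sources used here give nothing, so antisense and overlapping genes cannot be told apart. The only build named is mm10, per the submitters' processing notes, a mouse build, whereas all 206601 rows with a gene were found in GENCODE release 29 on GRCh38. A further 16014 rows without a gene held 16.9% to 17.7% of the counts and stayed out of tests and library sizes.

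Counts were summed per gene (58735 genes, 34795 with a count) and compared between groups by edgeR's quasi-likelihood test (version 4.0.16, R 4.3.3; TMM scaling, filterByExpr, robust fit, group as the only term), two-sided, with Benjamini-Hochberg adjustment over 17947 genes and a threshold of 0.05. The SE of an edgeR fold change was taken from its F statistic. Differences between libraries used log2 CPM with a prior count of 2. On simulated counts over 17947 genes for this contrast, edgeR found 1 of 67 genes set to 2-fold and 34 of 67 at 4-fold. At 8-fold it found 54 of 66, and 7 unchanged genes were called. The simulation drew each gene independently and held no division of libraries by DDIT4. Its rates therefore do not give the power of the contrast in the real libraries. DESeq2 was version 1.42.0 and limma 3.58.1. Sequences and starts are from the RefSeq promoter table, which held 449 of the 600 listed genes. Python 3.11.15 and matplotlib 3.10.9 were used.

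The members and the gene lists were chosen with earlier results of these data known. The genes selected by rule are ANXA1, the 5 markers and genes past the group test. To these come the 12 coding genes per direction with the largest smallest within-group difference at a mean of 5 CPM or more. Of each amino acid list come up to 6 highest and 2 lowest members, and of each other list the 2 most abundant. Not all genes selected are given above. Other genes, ATF4, TRIB3, MYC, NCL, NOP56, HSPA5, HSPA8, PDIA6, ERN1, HERPUD1, CCNE1, CDKN1A, MARS2, GOT1, ASS1 and the members named without full values among them, were named after their values were seen. The promoter search first used only the first listed start of each gene and was widened to any start after its values were seen; the closing section gives the first. Other scalings, filters, tools, the replicate number as a block, the DDIT4 side as covariate, the most abundant transcript per gene, counts thinned to the smallest library and each library left out were tried as alternatives.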

Additional observations from a re-analysis of the deposited data

How the results depend on the processing

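The count of 2 genes called between the groups depended on the tool: DESeq2 called 258, DESeq2 on all genes with a count, added after seeing the data, 160, edgeR with the DDIT4 side as covariate 5 and on the most abundant transcript per gene 1. Other scalings and filters and limma-voom gave 2 or 3, and leaving out each library gave 0 to 7, with 7 without siControl replicate 3, 2 without siControl replicate 1 and 0 without any other. The adjusted p of ANXA1 passed in DESeq2, limma-voom (0.0206), the stricter filter (0.0435), the covariate fit and without siControl replicate 3 (0.0487), beside the reported 0.0571; over the other alternatives it lay between 0.0517 and 0.392. The fold change of CHAC1 (-0.38) was 1.38 on its most abundant transcript and ran from -3.56 without siANXA1 replicate 2 to 0.17 without siControl replicate 2.

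With the replicate block, 0 genes were called. Same-numbered libraries correlated at -0.11, 0.26 and 0.26 in their deviations, so the numbers were not taken to pair the samples.

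Sides that do not overlap were seen in 4756 of 10681 genes (44.5%) under the stricter filter and in 8387 of 34795 (24.1%) with no filter, against 7144 (39.8%), and in 45.5% to 55.8% with 1 library left out, the most without siANXA1 replicate 2. Of the amino acid response genes, 45 to 65 were higher over the settings tried with all libraries, and 58 to 72 with 1 library left out; the number lower was 12 on the most abundant transcript. That setting also turned the smallest difference of JDP2 (-3.21), PSPH (-0.41), GLUL (-2.71) and WARS (-0.23) and the largest of PYCR3 (4.21), and thinning that of CASTOR2 (-0.0090). The cause was not tested. With only the first listed start, added after the data were seen, the ATF4 motif was in 19 of 110 amino acid response genes. It was in 1.65% of tested coding genes. Of 17 tested amino acid response genes with the motif there, 9 were higher and 0 lower. Of 84 without it, 33 were higher and 18 lower. The E-box was then in 6 of 20 genes of the MYC target and ribosome assembly list and 10.2% of tested coding genes. ERSE was in 5 of 20 genes of the endoplasmic reticulum list and 0.147% of tested coding genes.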
